A study of Mus musculus with 8 samples.

Results

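The 10 genes described here, Slc1a2, Slc1a3, Glul, Aqp4, Gja1, Gjb6, Gfap, S100b, Aldh1l1 and Sox9, are markers and transporters of astrocytes, chosen by symbol. All 10 were found among the 29713 genes of the deposited tables, and each was measured by RNA sequencing in all 8 mouse libraries. There was 1 library per group. Glia and neuron were preparations from brain of strain C57, and cerebellum, cortex and hippocampus were regions of C57 brain. The library labelled R1 ESC is, by its label, an embryonic stem cell line from the inner cell mass of strain 129X1 x 129S1, while day 13.5 embryos gave the fibroblast libraries ICR MEF, of strain ICR, and OG2 MEF, of strain OG2. The labels name no treatment. The sources used here do not give how glia and neurons were isolated, how many animals were pooled, or their age and sex.

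Astrocytes clear glutamate and potassium from around synapses, convert glutamate to glutamine for return to neurons, and line blood vessels with endfeet that carry water channels. They are joined to each other by gap junctions, and their intermediate filament protein is a classic marker of astrocytes in white matter, in hippocampus and in injured tissue. Astrocytes of the cerebellum, among them Bergmann glia, are known to use a different main glutamate transporter from those of the forebrain.

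Slc1a2 (chr2:102658659-102790784, plus strand) and Slc1a3 (chr15:8634124-8710764, minus strand) encode the main glutamate transporters of astrocytes, and Glul (chr1:153899944-153909723, plus) encodes glutamine synthetase. Aqp4 encodes the endfoot water channel, and Gja1 (chr10:56377330-56402513, plus) and Gjb6 (chr14:57123303-57133611, minus) encode the astrocyte connexins. Gfap (chr11:102887336-102900912, minus) encodes the intermediate filament protein, S100b (chr10:76253853-76261159, plus) a calcium-binding protein, Aldh1l1 (chr6:90486427-90600203, plus) an enzyme of folate metabolism and Sox9 (chr11:112782224-112787760, plus) a transcription factor of glial fate. Coordinates span the protein-coding genes in GENCODE release M21 on the mm10 build.

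RefSeq promoter windows (GRCm38.p6, 250 bases before to 50 after the start) were matched for 8 of the 10 genes, leaving Aqp4 and Sox9. The 6 printed 5′ to 3′ belong to the genes that set the libraries apart: Gfap, high in glia; Slc1a2, S100b and Gjb6, low in glia; Slc1a3, high in cerebellum; and Gja1, which the fibroblasts share. The windows lie at chr11:102897151-102897450 (minus) for Gfap, chr2:102706188-102706487 (plus) for Slc1a2, chr15:8710758-8711057 (minus) for Slc1a3, chr10:76253586-76253885 (plus) for S100b, chr10:56377050-56377349 (plus) for Gja1 and chr14:57133562-57133861 (minus) for Gjb6. Those of Gfap and Slc1a2 fall inside the span of the gene, whose outermost annotated start lies upstream. Capitals mark matches, on either strand, to 6 short motifs, none of which holds another.
Gfap: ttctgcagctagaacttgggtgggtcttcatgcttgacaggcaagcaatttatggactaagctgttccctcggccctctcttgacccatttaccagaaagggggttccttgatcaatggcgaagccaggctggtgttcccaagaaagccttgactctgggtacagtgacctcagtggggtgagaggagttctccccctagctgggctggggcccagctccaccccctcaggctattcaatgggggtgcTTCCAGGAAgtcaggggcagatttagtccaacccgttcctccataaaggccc
Slc1a2: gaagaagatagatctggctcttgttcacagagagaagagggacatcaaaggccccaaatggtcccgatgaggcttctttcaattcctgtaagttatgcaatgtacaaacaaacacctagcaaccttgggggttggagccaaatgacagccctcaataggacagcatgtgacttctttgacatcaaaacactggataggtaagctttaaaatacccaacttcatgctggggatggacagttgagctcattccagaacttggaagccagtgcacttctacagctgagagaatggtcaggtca
S100b: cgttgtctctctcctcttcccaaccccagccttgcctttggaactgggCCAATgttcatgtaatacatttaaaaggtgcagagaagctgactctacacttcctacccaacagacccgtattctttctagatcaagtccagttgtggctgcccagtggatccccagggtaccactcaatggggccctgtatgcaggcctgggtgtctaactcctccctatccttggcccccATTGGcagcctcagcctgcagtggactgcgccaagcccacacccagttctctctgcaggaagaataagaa
Gjb6: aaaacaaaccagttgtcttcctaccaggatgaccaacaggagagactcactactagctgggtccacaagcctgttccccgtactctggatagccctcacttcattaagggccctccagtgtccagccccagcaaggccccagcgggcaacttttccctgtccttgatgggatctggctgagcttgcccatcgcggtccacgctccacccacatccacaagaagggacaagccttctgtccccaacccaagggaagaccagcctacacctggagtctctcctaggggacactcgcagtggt
Slc1a3: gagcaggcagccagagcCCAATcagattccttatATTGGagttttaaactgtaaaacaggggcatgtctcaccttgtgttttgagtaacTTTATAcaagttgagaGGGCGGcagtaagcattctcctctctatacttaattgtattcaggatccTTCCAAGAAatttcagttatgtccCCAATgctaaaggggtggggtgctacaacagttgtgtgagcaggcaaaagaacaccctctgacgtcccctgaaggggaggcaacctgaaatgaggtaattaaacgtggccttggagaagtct
Gja1: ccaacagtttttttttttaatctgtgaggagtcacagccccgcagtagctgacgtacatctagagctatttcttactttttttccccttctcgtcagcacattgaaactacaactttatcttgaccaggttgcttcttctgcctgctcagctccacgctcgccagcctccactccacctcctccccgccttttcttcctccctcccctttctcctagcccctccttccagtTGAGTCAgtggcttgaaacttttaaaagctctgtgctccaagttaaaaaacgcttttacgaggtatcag
The motifs searched were the TATA box (TATAAA), the GC box (GGGCGG), the CCAAT box (CCAAT), a STAT motif (TTCNNNGAA), an AP-1 motif (TGANTCA) and a SOX motif (ACAAAG), which 14.2%, 35.9%, 37.9%, 8.47%, 7.93% and 18.7% of all 27025 promoter windows hold. The Gfap window held 1 STAT match and the Slc1a3 window held 1 STAT, 1 TATA, 1 GC and 3 CCAAT matches. The S100b window held 2 CCAAT matches, the Gja1 window 1 AP-1 match, and the Slc1a2 and Gjb6 windows no match. A match describes letters in these windows only. CpG dinucleotides numbered 1 in the Slc1a2 window and 17 in that of Glul, against a median of 7 over all windows.

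The libraries held 2147004 to 5864673 expected counts. For a gene of 2000 bases, 3 counts then correspond to between 0.461 and 0.943 TPM. With 1 library per group no difference has a replicate check, so no p-value is given. A gene was called higher when no library of the higher side was under 10 TPM and its lowest value, with 1 TPM added, exceeded the highest value of the other side 4-fold or more, and lower likewise. Folds are ratios of TPM with exact (Clopper-Pearson) 95% intervals in parentheses. Intervals and bounds cover counting error only, not differences between animals or preparations. The library labelled R1 ESC held few pluripotency transcripts, with Pou5f1 at 20.2 and Nanog at 10.3 TPM and Zfp42 and Esrrb at 0, and ribosomal protein genes took 39.1% of its TPM, against 4.41% to 19.4% in the other 7. It is therefore named by its label throughout.

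**Figure D1:**
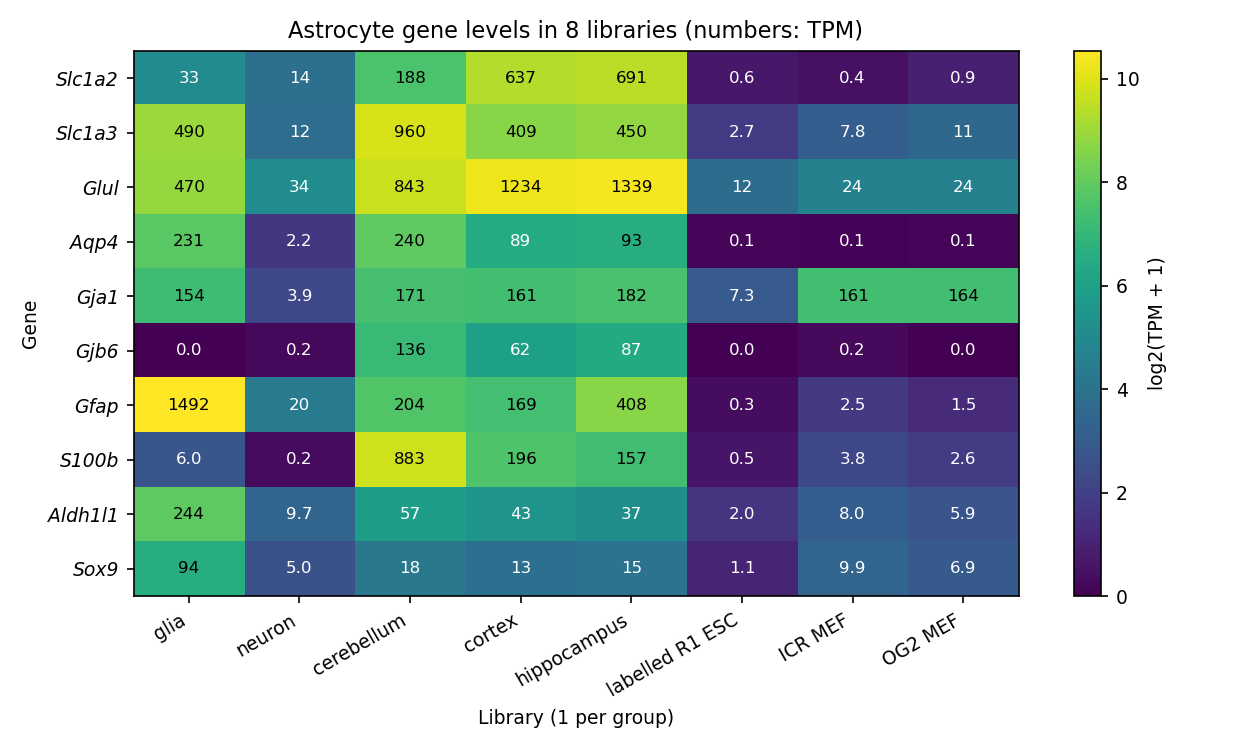
Levels of the 10 genes (rows, ordered by role) in the 8 libraries (columns). Colour gives log2(TPM + 1) and the printed number gives TPM; the brain regions have all 10 genes above 10 TPM, glia has 8, and Gfap in glia (1492 TPM) is the highest value of all.

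All 10 genes reached 10 TPM in each of the 3 brain regions, 8 did in glia, 4 in neuron, 1 in the library labelled R1 ESC, 2 in ICR MEF and 3 in OG2 MEF. Their summed level was 3216 TPM in glia and 101 TPM in neuron, and 3699 in cerebellum, 3013 in cortex and 3458 in hippocampus. The library labelled R1 ESC had 27.1 TPM, ICR MEF 217.4 TPM and OG2 MEF 216.7 TPM. Glia and the brain regions thus had sums within a narrow span, but the genes that made up the sum differed.

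The glutamate transporter genes ordered the neural libraries differently. Slc1a2 had 33.0 TPM in glia and 13.7 in neuron, 188 in cerebellum, 637 in cortex and 691 in hippocampus, 0.59 in the library labelled R1 ESC, 0.39 in ICR MEF and 0.90 in OG2 MEF. It was a gene of the tissue libraries, with the forebrain regions on top, and the last 3 values rest on 3 to 10 counts. Slc1a3 had 490.4 TPM in glia and 12.5 in neuron, 960.1 in cerebellum, 409 in cortex and 449.9 in hippocampus, 2.70 in the library labelled R1 ESC, 7.77 in ICR MEF and 10.6 in OG2 MEF. It led in cerebellum, and glia stood between cerebellum and the forebrain regions. Neuron and OG2 MEF were neighbours in its order with a ratio of 1.18 (0.917 to 1.51), an interval that holds 1.

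Glul, whose enzyme turns the glutamate that these transporters bring in into glutamine, had 469.9 TPM in glia and 33.5 in neuron, 843 in cerebellum, 1234 in cortex and 1339 in hippocampus, 12.4 in the library labelled R1 ESC, 23.8 in ICR MEF and 24.1 in OG2 MEF. It ordered the regions as Slc1a2 did, and it was the only one of the 10 at 10 TPM or more in all 8 libraries. The ratio of the fibroblast libraries had an interval that holds 1.

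Aqp4, whose gene spans chr18:15389496-15410982 (minus strand), had 231 TPM in glia and 2.24 in neuron, 239.5 in cerebellum, 88.6 in cortex and 92.8 in hippocampus, 0.14 in the library labelled R1 ESC, 0.07 in ICR MEF and 0.13 in OG2 MEF. Cerebellum and glia shared the top place, with a ratio of 1.04 (0.984 to 1.09), and hippocampus and cortex the next, with 1.05 (0.951 to 1.15). The 3 non-neural libraries held 1 or 2 counts each.

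The connexin genes had little in common outside the brain regions. Gja1 had 154 TPM in glia and 3.85 in neuron, 171 in cerebellum, 161 in cortex and 182 in hippocampus, 7.26 in the library labelled R1 ESC, 161 in ICR MEF and 164 in OG2 MEF. Glia, the 3 brain regions and both fibroblast libraries lay close together: the interval of each neighbour over the next in their order holds 1, and glia at the low end was 1.18-fold (1.08 to 1.29) lower than hippocampus at the high end. Gjb6 had 0 TPM in glia and 0.17 in neuron, 136 in cerebellum, 61.8 in cortex and 87.3 in hippocampus, 0 in the library labelled R1 ESC, 0.19 in ICR MEF and 0 in OG2 MEF. It was detected at more than 1 count only in the brain regions, where it had 369, 214 and 190 counts. No count in glia allows up to 1.21 TPM of Gjb6 at this depth.

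Gfap had 1492 TPM in glia and 20.2 in neuron, 204 in cerebellum, 169 in cortex and 408 in hippocampus, 0.28 in the library labelled R1 ESC, 2.48 in ICR MEF and 1.49 in OG2 MEF. Hippocampus led the regions, and neuron, with 155 counts, lay above the fibroblasts by 8.14-fold (4.92 to 14.3) over ICR MEF. S100b had 6.02 TPM in glia and 0.24 in neuron, 883 in cerebellum, 196 in cortex and 157 in hippocampus, 0.52 in the library labelled R1 ESC, 3.84 in ICR MEF and 2.59 in OG2 MEF. Glia, with 22 counts, lay next to ICR MEF, with 14 counts, and their interval holds 1 (ratio 1.57, 0.767 to 3.31).

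Aldh1l1 had 244 TPM in glia and 9.72 in neuron, 56.8 in cerebellum, 43.0 in cortex and 36.6 in hippocampus, 2.03 in the library labelled R1 ESC, 7.98 in ICR MEF and 5.91 in OG2 MEF. Sox9 had 94.4 TPM in glia and 5.05 in neuron, 17.8 in cerebellum, 13.3 in cortex and 15.1 in hippocampus, 1.13 in the library labelled R1 ESC, 9.93 in ICR MEF and 6.91 in OG2 MEF. Both genes were highest in glia, and Sox9 had the lowest levels of the 10 in the brain regions. There the intervals of neighbours in the order of Sox9 hold 1. This does not cover the ends of that order, cerebellum with 169 counts and cortex with 121. In bulk tissue, fewer cells of a type and less RNA per cell cannot be told apart.

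Glia and neuron, both prepared from brain, were set apart by most of these genes: 7 of the 10 genes were called higher in glia and 0 lower, beside 30.5% of all 11185 genes tested called higher and 10.4% lower. As every gene tested reached 10 TPM on a side, the like count is 7 of the 8 that did so. Aqp4 was 103-fold (73.8 to 149) higher in glia, Gfap 73.95-fold (63.1 to 87.2), Gja1 40.1-fold (28.7 to 57.8) and Slc1a3 39.4-fold (33.5 to 46.5). Aldh1l1, Sox9 and Glul followed with 25.1-fold (20.3 to 31.5), 18.7-fold (14.5 to 24.6) and 14.0-fold (12.4 to 15.9). On CPM, a share of all counts without regard to transcript length, the log2 differences of Gfap, Slc1a3 and Glul were 5.46, 4.54 and 3.12, in place of 6.14, 5.19 and 3.77 on TPM. The 3 genes not called were those lowest in glia. S100b was 25.1-fold higher on 22 counts in glia against 1 in neuron (4.05 to 1035) but did not reach 10 TPM, and Gjb6 had 0 counts in glia and 1 in neuron.

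The remaining gene, Slc1a2, depended on the length term of TPM. Its effective length, the average transcript length over which its reads were spread, was 5706 bases in glia, 11431 in neuron and between 10768 and 11017 in the brain regions. On TPM it stood 2.41-fold (2.13 to 2.73) above neuron in glia, a log2 difference of 1.21, whereas without the length term glia had 91.1 CPM and neuron 121.5 CPM, a log2 difference of -0.41. The order of glia and neuron for Slc1a2 is thus not settled by these tables. On the same scale the regions had 871, 2935 and 3283 CPM in cerebellum, cortex and hippocampus, so glia and neuron were lower than all 3 on either scale.

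**Figure D2:**
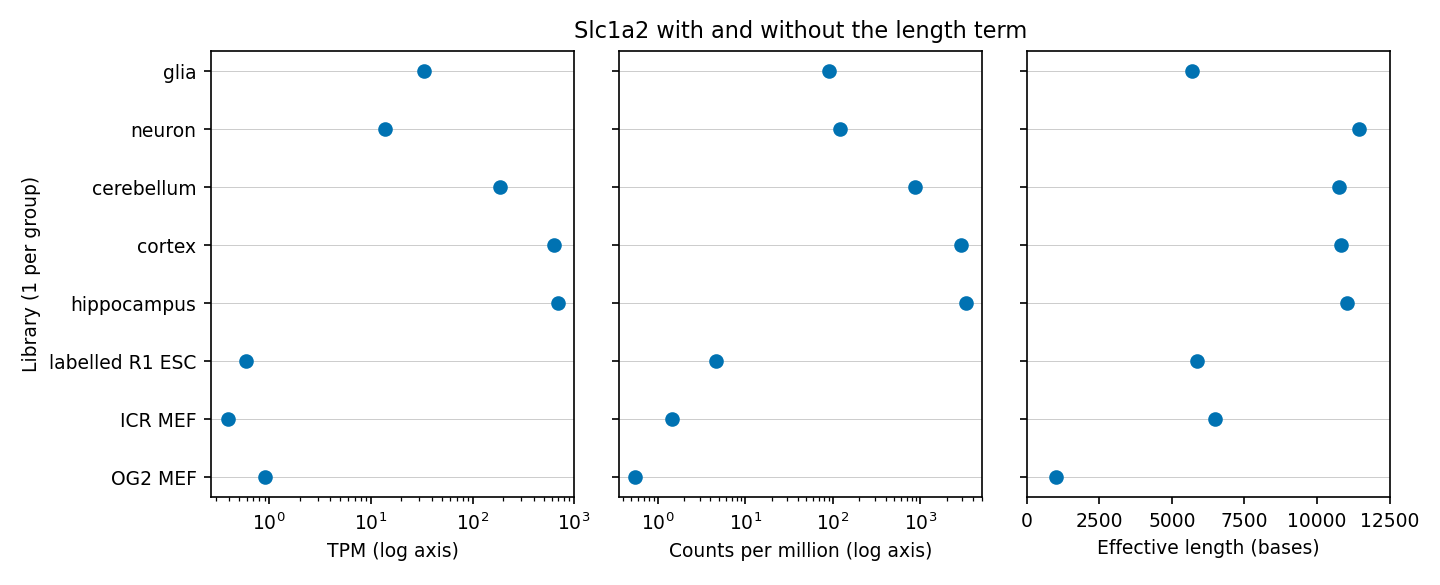
Slc1a2 in the 8 libraries as TPM (left, log axis), as CPM (middle, log axis) and by effective length in bases (right). Glia lies above neuron on TPM (33.0 against 13.7) and below it on CPM (91.1 against 121.5), and its effective length is 5706 bases, against 11431 in neuron.

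The median log2 difference of the 10 genes, glia over neuron, was 4.25, beside 0.95 for all genes tested. Of 30 other astrocyte genes, 17 were called higher in glia and 1 lower. The potassium channel gene Kcnj10 stood at 254 TPM in glia and 1.73 in neuron, the bicarbonate transporter gene Slc4a4 at 126 and 0.95, and the transcriptional regulator gene Id4 at 182 and 1.51. All 10 dividing-cell genes and 8 of 10 microglia markers were also called higher in glia, with summed levels of 1352 TPM in glia against 62.9 in neuron and of 845 against 74.1. All 10 microglia markers had counts in both libraries. Neuron markers summed to 478 TPM in glia, where Rbfox3 and Nefl of 10 had 0 counts, and to 5776 in neuron. The part of these other cells in the astrocyte gene difference was not tested.

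Against the 3 brain regions, the 10 genes divided in glia: Aldh1l1 and Sox9 were called higher, and Slc1a2, S100b and Gjb6 lower. Of 11347 genes tested, 6.91% were called higher and 9.04% lower. The median log2 difference of the 10 was -0.17, beside -0.02 for all genes.

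Aldh1l1 was 4.30-fold (3.87 to 4.79) higher in glia than in cerebellum, 5.67-fold (5.03 to 6.41) than in cortex and 6.67-fold (5.72 to 7.81) than in hippocampus. For Sox9 the folds were 5.32 (4.52 to 6.30), 7.08 (5.87 to 8.62) and 6.25 (5.06 to 7.79). Gfap was higher than in every region but fell short of a call: 7.30-fold (6.88 to 7.75) over cerebellum, 8.82-fold (8.26 to 9.43) over cortex and 3.66-fold (3.47 to 3.86) over hippocampus. Gfap met the rule without hippocampus, with a nearest log2 ratio of 2.86, and on CPM, with 2.02.

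S100b was 147-fold (96.7 to 234) lower in glia than in cerebellum, 32.5-fold (21.3 to 52.3) lower than in cortex and 26.0-fold (16.9 to 42.1) lower than in hippocampus. Gjb6, with 0 counts in glia set at 3, was at least 112-fold lower than in cerebellum, 51.2-fold lower than in cortex and 72.2-fold lower than in hippocampus. Slc1a2 was 5.69-fold (5.205 to 6.24), 19.3-fold (17.7 to 21.1) and 20.95-fold (19.2 to 22.9) lower than in the same regions. These Slc1a2 folds include the shorter effective length in glia, and on CPM its nearest log2 difference was -3.24, in place of -2.47 on TPM. These genes encode a secreted calcium-binding protein, a connexin and a glutamate transporter, and each was above 60 TPM in every region.

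The other 5 genes stayed within 4-fold of at least 1 region. Glul was 1.79-fold (1.72 to 1.87), 2.63-fold (2.52 to 2.74) and 2.85-fold (2.73 to 2.98) lower in glia than in cerebellum, cortex and hippocampus. Slc1a3 was 1.96-fold (1.89 to 2.03) lower than in cerebellum and 1.20-fold (1.15 to 1.25) and 1.09-fold (1.04 to 1.14) higher than in cortex and hippocampus. Gja1 and Aqp4 lay close to the regions, Gja1 between 1.04-fold and 1.18-fold lower and Aqp4 from 1.04-fold lower than cerebellum to 2.61-fold higher than cortex.

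**Figure D3:**
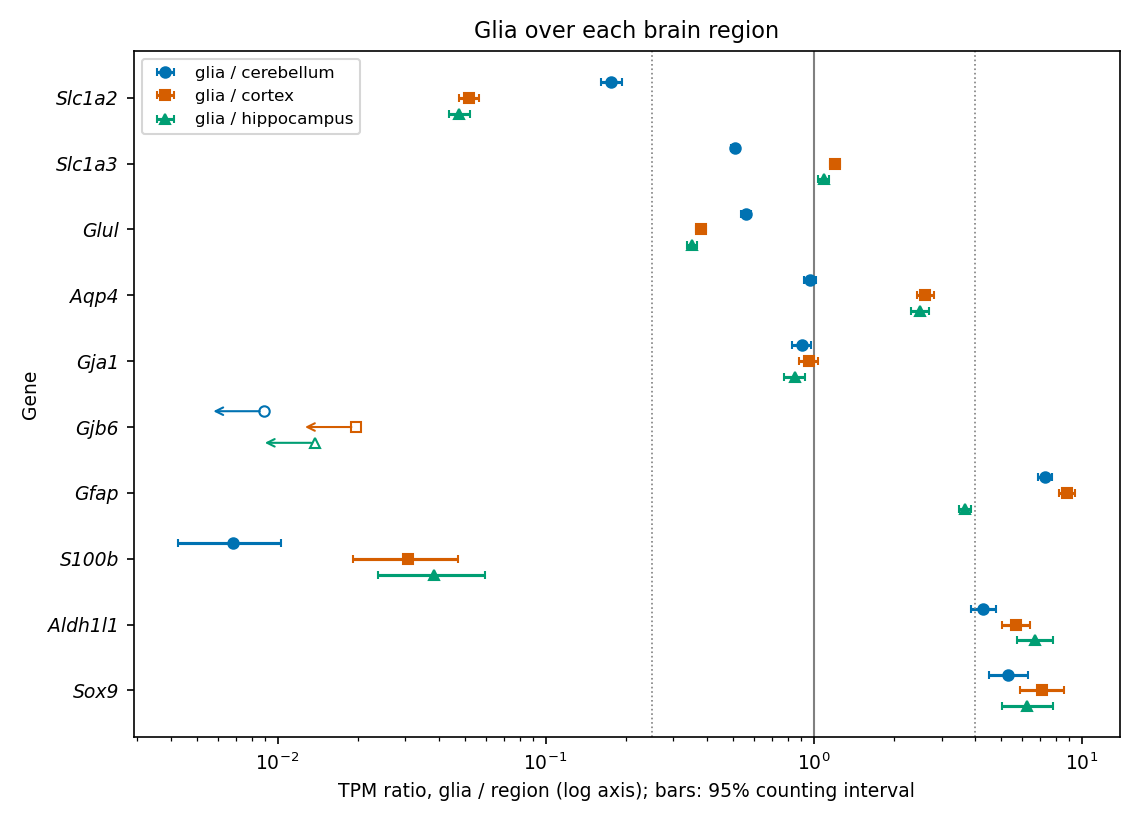
TPM ratio of glia over cerebellum (circles), cortex (squares) and hippocampus (triangles) for the 10 genes, on a log axis with 95% counting intervals; open symbols with arrows are upper bounds of the ratio for Gjb6, which had 0 counts in glia, and dotted lines mark 4-fold. Gfap, Aldh1l1 and Sox9 lie to the right of 1 in all 3 comparisons, and Slc1a2, S100b, Gjb6 and Glul to the left. Gja1 also lies to the left, close to 1.

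Other gene lists of astrocytes went in different directions in glia, beside 6.91% of all genes tested called higher and 9.04% lower. Of the 30 other astrocyte genes 29 reached 10 TPM on a side, and 1 was called higher and 10 lower. The neurotensin receptor gene Ntsr2 was at 1.56 TPM in glia, with 116.5 in cerebellum, 128 in cortex and 157 in hippocampus, and the GABA transporter gene Slc6a11 at 0.36 TPM in glia and at 34.1, 118.5 and 93.5 TPM in the same regions. The amino acid transporter gene Slc7a10, at 0.89 TPM in glia, and the claudin gene Cldn10, at 0.74 TPM, were also called lower. Of 15 reactive astrocyte genes 11 reached 10 TPM on a side, and 10 were called higher in glia and 0 lower. Cd109 led (208 TPM in glia, at most 3.32 in the regions), followed by Emp1 (207 TPM, at most 3.94). Of 9 radial and Bergmann glia genes 8 reached 10 TPM on a side, and 4 were called higher and 0 lower. Those higher were the filament genes Nes and Vim (562 and 10414 TPM in glia), the matrix gene Tnc (372) and the lipid-binding protein gene Fabp7 (2900). Vim also had 5814 TPM in ICR MEF and 6037 in OG2 MEF, and Tnc 454 and 424. Against the fibroblasts, Nes and Fabp7 were called higher in glia, and Vim and Tnc were not called.

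Markers of other cells moved with the glia library as well. Dividing-cell genes were called higher for 9 of 10, with a summed level of 1352 TPM in glia and 90.8 to 114 TPM in the regions. Oligodendrocyte markers summed to 158 TPM in glia, where Mog and Mobp had 0 counts, and to 4877 to 6404 TPM in the regions. Of the 10, 9 were called lower, and Cnp, not called, held 147 TPM of the glia sum. Neuron markers summed to 478 TPM in glia, of which Stmn2 held 288 and Map2 118, and to 7577 to 8398 TPM in the regions. Fibroblast markers summed to 1797 TPM in glia and 484 to 894 TPM in the regions, with 4 of 10 called higher and 1 lower. Thy1, not called, held 520 TPM of the glia sum and 401, 782 and 686 TPM of those in cerebellum, cortex and hippocampus. In neuron Thy1 stood at 695 TPM. Microglia markers summed to 845 TPM in glia and 199 to 675 TPM in the regions, with 0 of 10 called. What these other cells add to the difference in the 10 genes was not tested. As background, S100b and the myelin-associated connexins Gjb1 and Gjc3 are also expressed by oligodendrocytes, and both connexins were called lower in glia, Gjb1 having 0 TPM in glia, with 32.4 in cerebellum, 18.8 in cortex and 18.4 in hippocampus.

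In neuron, 8 of the 10 genes were called lower than in all 3 brain regions and 0 higher, beside 19.2% of 10178 genes tested called lower and 1.97% higher. Slc1a3 was 77.1-fold (65.8 to 91.0) lower in neuron than in cerebellum, 32.9-fold (28.0 to 38.9) lower than in cortex and 36.1-fold (30.7 to 42.8) lower than in hippocampus. Gfap was 10.1-fold (8.56 to 12.05), 8.38-fold (7.07 to 9.998) and 20.2-fold (17.1 to 24.0) lower than in the same regions. Aldh1l1 and Sox9 were not called. The nearest region stood 3.77-fold (2.90 to 4.92) above neuron for Aldh1l1 and 2.64-fold (1.93 to 3.65) for Sox9, and without hippocampus Aldh1l1 met the rule. On CPM the differences from the nearest region were smaller, with log2 values of -4.13 for Slc1a3 and -2.17 for Gfap, in place of -4.93 and -3.01 on TPM. The median log2 difference of the 10 was -5.08, beside -0.99 for all genes, and 23 of the 30 other astrocyte genes were called lower. Oligodendrocyte markers were lower in neuron for 10 of 10, with a sum of 35.2 TPM.

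Among the regions, cerebellum was set against the forebrain regions cortex and hippocampus. S100b was the 1 gene of the 10 called, higher in cerebellum by 4.51-fold (4.12 to 4.94) over cortex and 5.64-fold (5.02 to 6.34) over hippocampus, and none was called lower, beside 2.36% of 11199 genes tested called higher and 3.15% lower. Slc1a2 came nearest to a call in the other direction, at 3.39-fold (3.29 to 3.50) and 3.68-fold (3.56 to 3.81) lower in cerebellum. Slc1a3 was 2.35-fold (2.26 to 2.44) and 2.13-fold (2.05 to 2.23) higher in cerebellum than in cortex and hippocampus, and Aqp4 2.70-fold (2.51 to 2.91) and 2.58-fold (2.38 to 2.80). With a 2-fold threshold in place of 4, Slc1a3, Aqp4 and S100b were called higher and Slc1a2 lower, beside 7.43% and 7.39% of genes.

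The glutamate transporter genes thus changed places within the libraries. Slc1a3 over Slc1a2 was 14.9 (13.6 to 16.3) in glia, 5.12 (4.94 to 5.30) in cerebellum, 0.643 (0.620 to 0.666) in cortex and 0.651 (0.625 to 0.678) in hippocampus. Glul over Slc1a2 was 4.49 (4.31 to 4.67) in cerebellum and 1.94 in both cortex (1.88 to 1.99) and hippocampus (1.87 to 2.004). Ratios within a library do not depend on how libraries are scaled to each other, though they do depend on the length term. On counts, Slc1a3 over Slc1a2 was 10.1 in glia, 1.88 in cerebellum, 0.237 in cortex and 0.233 in hippocampus. Glul over Slc1a2 on counts was 0.99 in cerebellum, 0.452 in cortex and 0.409 in hippocampus, so which of these genes was higher in cortex and hippocampus turned with the scale. Gja1 over Gjb6 was 1.26 (1.12 to 1.42) in cerebellum, 2.61 (2.25 to 3.03) in cortex and 2.08 (1.78 to 2.45) in hippocampus. On counts it was 3.27, 5.06 and 4.44 in the same order. The effective length of Gjb6 was 1131, 1514 and 1369 bases in these regions, so its TPM differences between them include the length term.

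**Figure D4:**
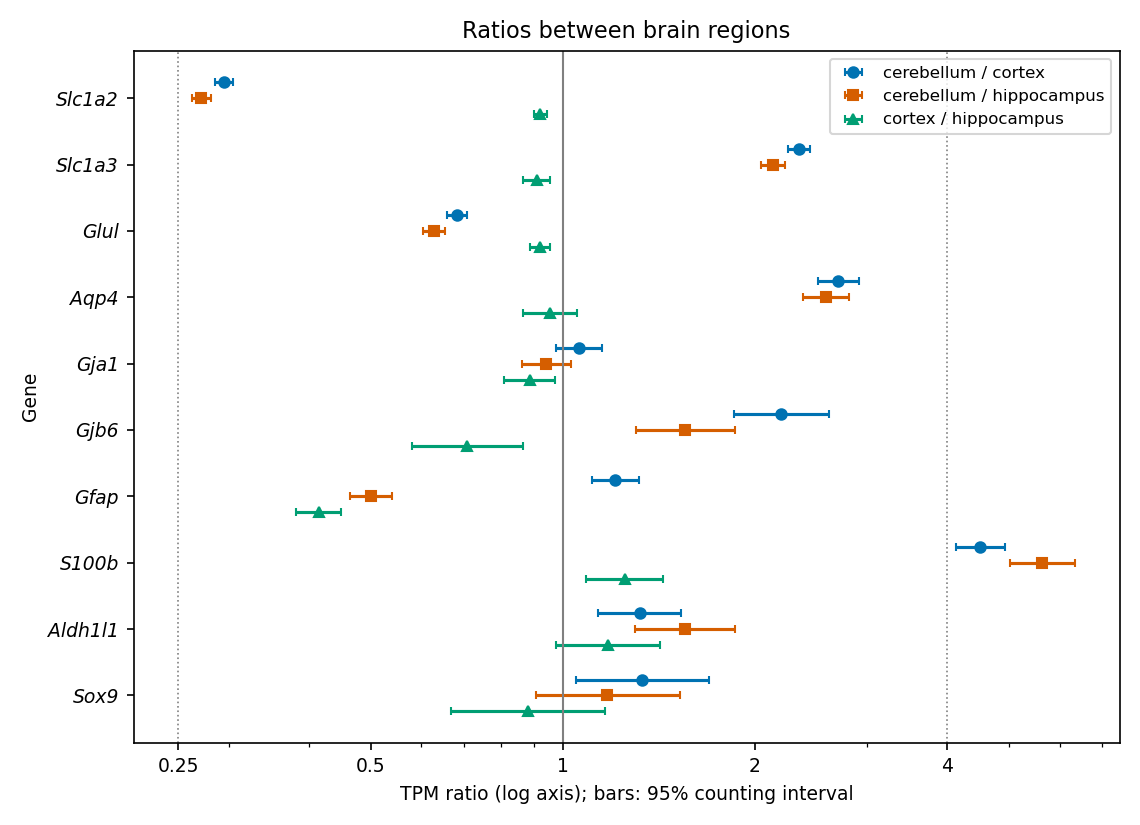
TPM ratios between brain regions for the 10 genes, cerebellum over cortex (circles), cerebellum over hippocampus (squares) and cortex over hippocampus (triangles), on a log axis with 95% counting intervals; dotted lines mark 4-fold. S100b passes 4-fold in cerebellum, Slc1a2 lies on the opposite side, and the cortex over hippocampus ratios lie near 1 except that of Gfap.

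Of the 9 radial and Bergmann glia genes, 3 were called higher in cerebellum. The growth factor gene Gdf10 had 181 TPM in cerebellum, against 8.41 in cortex and 14.6 in hippocampus, the transcription factor gene Pax6, also a granule cell gene, had 116, 11.3 and 10.2, and Vim had 280.1, 58.8 and 58.2. Of the 13 other glutamate transporter and cycle genes the Purkinje cell transporter gene Slc1a6 was the 1 called, with 254 TPM in cerebellum, against 11.4 in cortex and 10.9 in hippocampus. None of the 30 other astrocyte genes was called in either direction, and their median log2 difference was 0.10, beside 0.40 for the 10 and 0.14 for all genes. The fate regulator genes Lhx2, Emx2 and Hes5 were called lower in cerebellum, Lhx2 at 0.27 TPM against 49.3 and 57.5. Oligodendrocyte markers had sums of 6404, 4877 and 6364 TPM in cerebellum, cortex and hippocampus, with 0 of 10 called. Microglia markers had sums of 199, 675 and 624 TPM in the same order, with a median log2 difference of -1.76 and 1 of 10 called lower in cerebellum. The part of oligodendrocytes or of microglia in the differences of the 10 genes, S100b included, was not tested.

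Between cortex and hippocampus no gene of the 10 was called in either direction, beside 0.832% of 11059 genes called higher in cortex and 0.452% lower. Gfap differed most, 2.41-fold (2.22 to 2.61) lower in cortex, and with a 2-fold threshold it was the 1 gene called, beside 3.45% of genes called higher and 2.2% lower. Gjb6 was 1.41-fold (1.16 to 1.73) lower in cortex and S100b 1.25-fold (1.09 to 1.44) higher, while the intervals of Aqp4, Aldh1l1 and Sox9 hold 1.

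**Figure D5:**
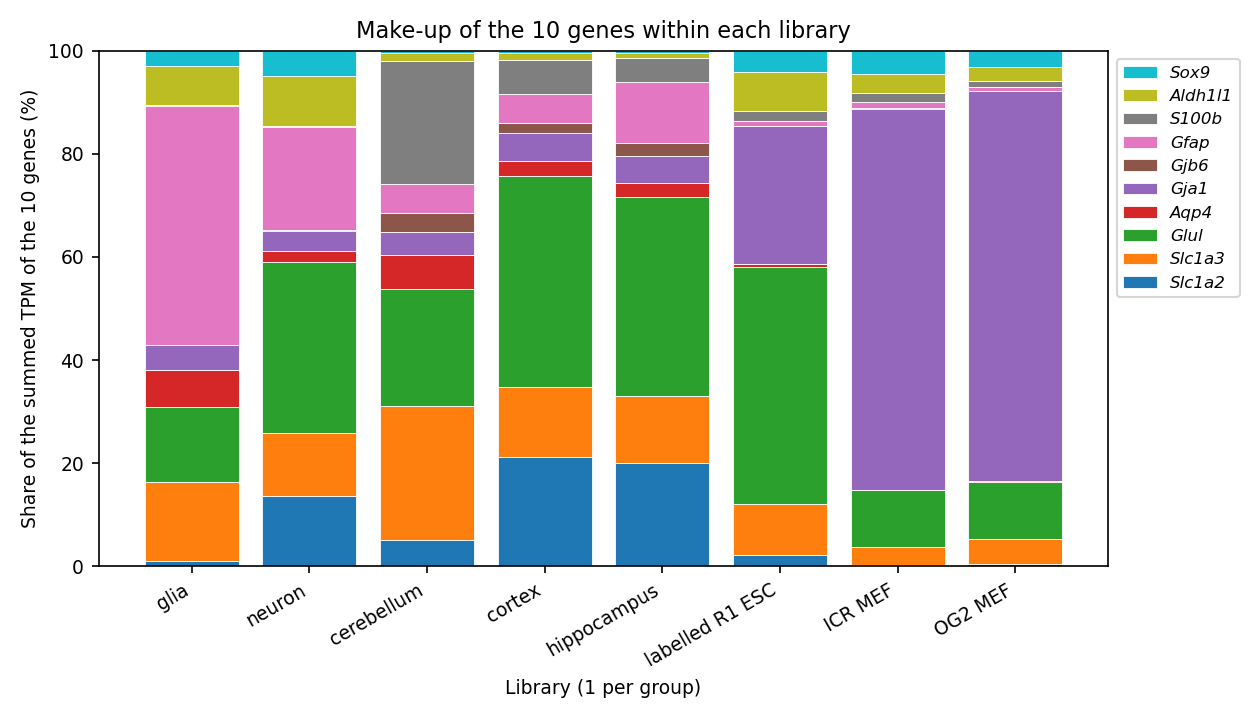
Share of each gene in the summed TPM of the 10 genes (percent, stacked bars) within each of the 8 libraries. Gfap makes up 46.4% in glia, Glul 41.0% in cortex and 38.7% in hippocampus, Slc1a3 26.0% in cerebellum, and Gja1 74.0% and 75.7% in ICR MEF and OG2 MEF.

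The gene with the largest share of the summed level of the 10 was Gfap in glia with 46.4%, Slc1a3 in cerebellum with 26.0%, and Glul in neuron, cortex and hippocampus with 33.2%, 41.0% and 38.7%. In the fibroblasts it was Gja1, with 74.0% in ICR MEF and 75.7% in OG2 MEF, and in the library labelled R1 ESC it was Glul with 45.9%. On counts, which weight long transcripts more, Slc1a2 took the largest share in neuron, cortex and hippocampus, with 37.8%, 51.0% and 50.8%.

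The brain regions set against both fibroblast libraries gave 8 of the 10 genes called higher and 0 lower, beside 17% of 10730 genes called higher and 6.67% lower. The exceptions were Sox9, at 13.3 to 17.8 TPM in the regions and 6.91 and 9.93 TPM in the fibroblasts, and Gja1, at 161 to 182 TPM in the regions and 161 and 164 TPM in the fibroblasts. Fibroblasts are known to be coupled by the Gja1 connexin. Aldh1l1 was called at 4.59-fold (3.38 to 6.31) between its nearest libraries, hippocampus and ICR MEF, and lost its call with 5 TPM added, with TMM factors, with CPM and without ribosomal protein genes, at log2 ratios of 1.68 to 1.97. The median log2 difference of the 10 was 5.99, beside 0.61 for all genes, and 26 of the 30 other astrocyte genes were called higher and 1 lower.

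Glia set against the fibroblasts gave 7 of the 10 called higher and 0 lower, beside 10.3% of 10436 genes called higher and 2.98% lower, and 8 of the 10 could be called. Gfap was 602-fold (376 to 1033) higher in glia than in ICR MEF and 1002-fold (573 to 1939) higher than in OG2 MEF. Sox9 was 9.51-fold (7.80 to 11.7) and 13.7-fold (11.0 to 17.2) higher. S100b, Gjb6 and Gja1 were not called, Gja1 with ratios of 0.959 (0.887 to 1.04) and 0.940 (0.872 to 1.013). Of the 15 reactive astrocyte genes 1 was called higher and 1 lower in glia, and 9 were called lower in the brain regions than in the fibroblasts. Of 10 fibroblast markers 8 were called lower in glia, with summed levels of 1797 TPM in glia, 11854 in ICR MEF and 10225 in OG2 MEF.

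In the library labelled R1 ESC, 1 of the 10 genes was called lower than in both fibroblast libraries and 0 higher, beside 48% of 8461 genes called lower and 4.83% higher. Only 2 of the 10 reached 10 TPM on a side and could be called, so the like count is 1 of 2. That gene was Gja1, 22.2-fold (17.2 to 29.1) lower than in ICR MEF and 22.6-fold (17.5 to 29.6) lower than in OG2 MEF. Its nearest log2 difference was -4.29 on TPM, -3.63 with TMM factors and -3.19 on CPM. The other 9 had at most 94 counts in that library, and 4 of them, Gfap, Aqp4, S100b and Gjb6, had 2 counts or fewer. ICR MEF and OG2 MEF had 0 of the 10 called in either direction, beside 0.437% and 0.149% of 8699 genes, though 3 could be called, and Sox9 was the 1 gene whose interval did not hold 1, at 1.44-fold (1.08 to 1.92) higher in ICR MEF.

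The genes whose levels ran most like those of the 10 were found by Pearson's r of log2(TPM + 1) over the 8 libraries, among 12302 genes. These are descriptions over 8 points that share depth and composition within a library. Kcnj10 was nearest to Aqp4 (r = 0.997), followed by Acsbg1 and Abca8a. Ptprz1, Sema6d and Lcat were nearest to Slc1a3, with r of 0.992 to 0.995. The nearest genes to Gjb6 were the haemoglobin gene Hbb-bs and the myelin genes Ugt8a and Ermn, all near 0 outside the brain regions and with r of 0.998, and 26 genes had r of at least 0.99 with it. Gbp3, Ptprj and Pou3f3 were nearest to Gfap, Padi2, Ntng1 and Rlbp1 to Slc1a2, and Cbs, Gtf2a1 and Car2 to Glul. Cers4, C2cd3 and Hfe were nearest to Aldh1l1, Angpt1, Atf7ip and Slc16a1 to Sox9, Gigyf1, Fitm2 and Tril to S100b, and Wapl and Ankrd52 to Gja1.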

How the data were processed

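RNA was measured in 8 libraries, 1 per group, so no test across libraries was run. Total RNA was extracted with Trizol, and 1 ug of it entered a TruSeq library kit, per the labels' protocols. The submitters' processing notes name Bowtie, RSEM and mm10; they give no versions, annotation release or strandedness. Expected counts, which need not be whole, were deposited by the authors for each gene. TPM values, scaled by effective length, and the effective lengths were deposited in the same tables, per the file headers. Counts and lengths gave back 99.9% of TPM values of 10 or more within 1%, and 72 of the 80 expected counts of the 10 genes were whole.

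Computed here were the 4-fold calls over all genes with at least 10 TPM in every library of a side, ratios with exact intervals, and counts scaled to the library total (CPM). A side at 0 counts was set at 3 counts. The 9 comparisons and 15 further gene lists (187 of 189 genes measured) were used, with up to 4 genes named per list, called ones first by size; a few more were named after their values were seen, and some items are not reported here. The members and lists were chosen with earlier results of these data known. Alternatives were 0.1 or 5 TPM added, a floor of 1 TPM, a 2-fold threshold, TMM factors (edgeR), CPM, TPM without ribosomal protein genes, and each library left out. Simulated libraries were used to test the calling. Work was done in Python 3.11.15 with scipy 1.17.1, pandas 2.3.3 and matplotlib 3.10.9, and edgeR 4.0.16 in R 4.3.3.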

Additional observations from a re-analysis of the deposited data

How the results depend on the processing

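No paired analysis was possible because each group held 1 library and no test was run. With a 2-fold threshold, the cerebellum against cortex and hippocampus gave 3 of the 10 genes higher and 1 lower, in place of 1 and 0, and cortex against hippocampus gave 1 lower in place of 0. On counts in place of TPM, the share of Gfap among the 10 was 37.7% in glia, of Glul 20.8% in neuron, of Slc1a3 32.9% in cerebellum, and of Glul 23.1% in cortex and 20.8% in hippocampus. The other 160 summary values, which cover the counts of called genes under the other alternatives and each library left out, stayed within 1.5 times, and no called gene changed direction. Among uncalled genes, CPM turned the sign for Slc1a2 in glia against neuron (log2 1.21 to -0.41), for Glul in the library labelled R1 ESC against the fibroblasts (-0.89 to 0.20) and for Slc1a2 in ICR MEF against OG2 MEF (-0.45 to 0.66). With a floor of 1 TPM, S100b was called higher in glia than in neuron. The median of all genes for glia against neuron was 0.95 on TPM, 0.75 with TMM factors, 0.81 without ribosomal protein genes and 0.31 on CPM, and the share of higher calls among all calls 74.6% on TPM and 60.6% on CPM. For neuron against the regions the median was -0.99, -0.79, -0.82 and -0.20 in that order, and the share of higher calls 9.32% on TPM and 31.7% on CPM. For the library labelled R1 ESC against the fibroblasts the share was 9.14% on TPM, 19.8% with TMM factors and 22.7% on CPM. The cause was not tested. By Spearman's rho in place of Pearson's r, none of the genes named as most like Aqp4, Gja1, Gjb6, Glul or S100b stayed among the first 10. Of those named for Gfap only Gbp3 stayed, and of those for Slc1a3 only Lcat. By Pearson's r without the library labelled R1 ESC, only Padi2 stayed for Slc1a2 and only Gigyf1 for S100b. Neither Wapl nor Ankrd52 then stayed for Gja1.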

Other observations

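Of 15 glial fate regulators measured, 3 were called higher and 1 lower in glia than in all 3 brain regions, beside 6.91% of all genes tested called higher and 9.04% lower. Those higher were Id3 at 738 TPM in glia and 26.5, 51.7 and 59.2 TPM in cerebellum, cortex and hippocampus, Id1 at 434 TPM in glia and 30.2, 35.4 and 31.0 TPM in the same regions, and Sox2 at 225 TPM in glia and 30.1, 40.5 and 40.4 TPM. Sox10, which marks the oligodendrocyte lineage, was the 1 called lower, at 0 TPM in glia and 27.5 to 35.1 TPM in the regions. Of 8 oligodendrocyte precursor markers 1 was called higher and 1 lower, with a median log2 difference of -1.67. Olig1 was higher, at 631 TPM in glia and 82.6, 123 and 137 TPM in the regions, and Bcas1 was lower, at 1.42 TPM in glia and 121 to 150.1 TPM in the regions. Of 10 choroid plexus and ependyma markers 1 was likewise called higher and 1 lower, with a median log2 difference of -1.23. Foxj1, a regulator of motile cilia, was higher, at 170.3 TPM in glia and 5.34 to 10.2 TPM in the regions, and Ttr, the transthyretin gene of choroid plexus, stood at 4.13 TPM in glia and 34.96 to 1183 TPM in the regions. Endothelial markers were called lower in glia for 3 of 10, with summed levels of 79.5 TPM in glia and 327 to 354 TPM in the regions. Slc2a1, not called, held 58.9 TPM of the glia sum.

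Of 14 other aquaporin and endfoot genes, 6 reached 10 TPM on a side and could be called in glia against the regions. Of these, 1 was called higher and 0 lower, beside 6.91% of all genes tested called higher and 9.04% lower. That gene was Dag1, the dystroglycan gene of the endfoot water channel complex. Dag1 stood at 327 TPM in glia and 53.5, 60.4 and 55.3 TPM in cerebellum, cortex and hippocampus. Aqp6 was called in cerebellum, at 28.4 TPM there, 0.23 in cortex and 0 in hippocampus, and the fibroblasts held Aqp1 at 46.1 TPM in ICR MEF and 32.0 TPM in OG2 MEF. Of the 15 reactive astrocyte genes, 6 reached 10 TPM on a side and could be called in neuron against the regions. Of these, 3 were called higher and 2 lower, beside 1.97% of all genes tested called higher and 19.2% lower. The acute-phase gene Lcn2, called higher, stood at 277 TPM in neuron, 5.4 TPM in glia and at most 1.12 TPM in the regions. The complement gene C3 stood at 15.2 TPM in neuron, 12.98 TPM in glia and at most 1.73 TPM in the regions. The protease inhibitor gene Timp1 stood at 18.4 TPM in neuron and at most 2.62 TPM in the regions. In glia Timp1 stood at 94.83 TPM, and it was called higher there than in neuron. Tm4sf1 and Hspb1 were lower, at 1.49 and 2.18 TPM in neuron and at least 15.52 and 13.98 TPM in the regions.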
